A study of Mus musculus with 24 samples.

Results

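Alveolar macrophages (AMs) that carried an EGFP reporter of Spp1 and were sorted as EGFP+ at day 30 after bleomycin were compared with AMs sorted the same way at day 7 after PBS. The comparison used 6 of the 24 libraries of the series, 3 in each group. It was restricted to autosomal genes whose chromosome, start, end and strand are the same in both deposited count tables, which kept 40395 of the 49022 genes found in both. The study as a whole profiled sorted lung macrophages of wild-type and reporter mice by bulk sequencing of polyadenylated RNA. All AM libraries came from Spp1-EGFP KI reporter mice, a knock-in in which EGFP reports the expression of Spp1, and from the CD11b- SiglecF+ gate. The day 30 mice had received bleomycin, a drug that injures the lung epithelium and is used to model fibrosis, into the trachea at 3 µg per g body weight. The control mice had received PBS by the same route. EGFP+ AMs at day 14 after the same dose of bleomycin (3 libraries) are given beside these groups. The age and sex of the mice, and whether a library came from 1 mouse or a pool, are not given in the sources used here, so p-values measure only the spread between libraries, which may be technical. EGFP- AMs were not analysed here.

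AMs live in the air spaces, where they clear surfactant lipids, dust and dying cells, and they depend on signals from the lung epithelium. After injury, monocytes recruited from blood enter the air spaces and can take on AM surface markers, so a CD11b- SiglecF+ gate may hold cells of both origins. Spp1 encodes osteopontin, a secreted matrix protein that binds integrins and CD44 and is a known marker of macrophages in fibrotic lung. Lipid-laden macrophages of this kind are also known for Trem2, Gpnmb, Fabp5, Apoe and lysosomal genes.

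The day 30 libraries held 15204964 to 16474795 counts each and the PBS libraries 18227184 to 24580620. Levels are in CPM, a gene's counts relative to the library total, scaled by TMM factors over the 9 AM libraries. Of 11827 genes tested, 55% were called at an adjusted p under 0.05 by the edgeR quasi-likelihood test with Benjamini-Hochberg adjustment, 28.3% higher (3351 genes) and 26.7% lower (3156 genes) at day 30. At least 2-fold changes were called in 8.95% (higher) and 7.02% (lower) of the genes. With scaling to the total count alone, 2542 genes were called higher and 4009 lower at any fold, and the median log2 change over all genes was -0.10 in place of 0.01, so that small rises in particular are relative to this scaling. In 61.6% of the genes the 3 day 30 libraries did not overlap the 3 PBS libraries. The day 30 and day 14 libraries are in one count table and the PBS libraries in the other, so bleomycin, day and table cannot be told apart in the comparison with PBS. In 8.07% of the genes tested, all 9 libraries of the second table, interstitial macrophages included, lay above or all lay below the 15 of the first. Such genes are said here to separate by table. The first table holds only libraries of day 7, and the second only EGFP+ bleomycin libraries of day 14 or 30. Over the series, table and day thus cannot be told apart either. Xist was at 323 to 383 CPM of the total count in the PBS libraries and had no count in any day 30 or day 14 library, where 3 counts would give 0.182 to 0.223 CPM. The Y-linked gene Ddx3y was at 75.3 to 123 CPM in all 9. The PBS libraries thus held Xist and Y-linked transcripts together, and the bleomycin AM libraries Y-linked transcripts without Xist. The sex of the mice may thus differ between the groups, along with bleomycin, day and table. The part of this difference in the results was not tested. In bulk samples, fewer cells of a type and less RNA per cell cannot be told apart.

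The genes of the reporter and the gate were read first. Spp1 (ENSMUSG00000029304, GRCm38 chr5:104435118-104441050, plus strand) was at 196, 178 and 191 CPM in the PBS libraries and at 7010, 6811 and 6803 CPM at day 30. All 3 day 30 libraries lay far above the PBS range, and Spp1 rose 36.5-fold (log2 change 5.19 ± 0.05 SE, adjusted p = 2.99e-22 by edgeR, n = 3 and 3). Both groups were sorted on the reporter of Spp1, so these levels describe EGFP+ cells and not all AMs. Siglecf, which encodes the sialic acid-binding receptor of the gate, fell from 386 ± 11.8 to 135 ± 3.65 CPM (mean ± SD, n = 3; log2 change -1.51). Itgam, which encodes CD11b, the marker absent from the gate, rose from 8.56 ± 2.24 to 26.3 ± 4.31 CPM (log2 change 1.63). In the 5 interstitial macrophage groups of the series, sorted through another gate, the mean of Itgam was 218 to 379 CPM of the total count.

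The bases before the Spp1 start site are shown because the locus drives both the transcript and the reporter. They are from RefSeq (GRCm38.p6, chr5:104434861-104435110, plus strand, positions -250 to -1 of the RefSeq start). Capitals mark the single match among AP-1 (TGANTCA), E-box (CACGTG), interferon response element (GAAA, any 2 bases, GAAA) and C/EBP (TTGCNNAA) letters on both strands, an interferon element on the minus strand at -157.
Spp1: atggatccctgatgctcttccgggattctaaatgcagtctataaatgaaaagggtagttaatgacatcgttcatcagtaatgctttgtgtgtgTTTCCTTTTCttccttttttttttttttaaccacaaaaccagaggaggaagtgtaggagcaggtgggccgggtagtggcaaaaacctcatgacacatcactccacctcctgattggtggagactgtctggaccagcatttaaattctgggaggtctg
Of the genes tested, 7297 of 11827 had a promoter in the RefSeq table within 500 bases of the deposited gene start. The 250 bases before each RefSeq start were searched and are here called its window. Of these windows, 2.8% held the interferon element letters, 4.17% the AP-1, 8.58% the E-box and 7.67% the C/EBP letters.

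The receptors of osteopontin moved in both directions. Cd44, the main non-integrin receptor, was at 2589, 2561 and 2579 CPM after PBS and at 1413, 1376 and 1350 CPM at day 30. The groups did not overlap, and Cd44 fell 1.87-fold (log2 change -0.90 ± 0.04, adjusted p = 1.02e-12 by edgeR). Among the integrin genes, Itgav, an alpha subunit of RGD-binding integrins, rose from 40.8 to 59.4 CPM, while Itga4 fell from 181 to 138 CPM and the common beta subunit gene Itgb1 from 503 to 436 CPM. Itga8 and Itga9 rose at levels of 0.664 to 1.98 and 1.18 to 2.56 CPM, the former not past the test without day 30 replicate 2, and Itga5 and Itgb3 did not pass the test. In all, 3 of 8 tested receptor genes rose and 3 fell, where 28.3% of all genes rose and 26.7% fell. With all 9 AM libraries in one fit, 2 rose and 3 fell.

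**Figure D1:**
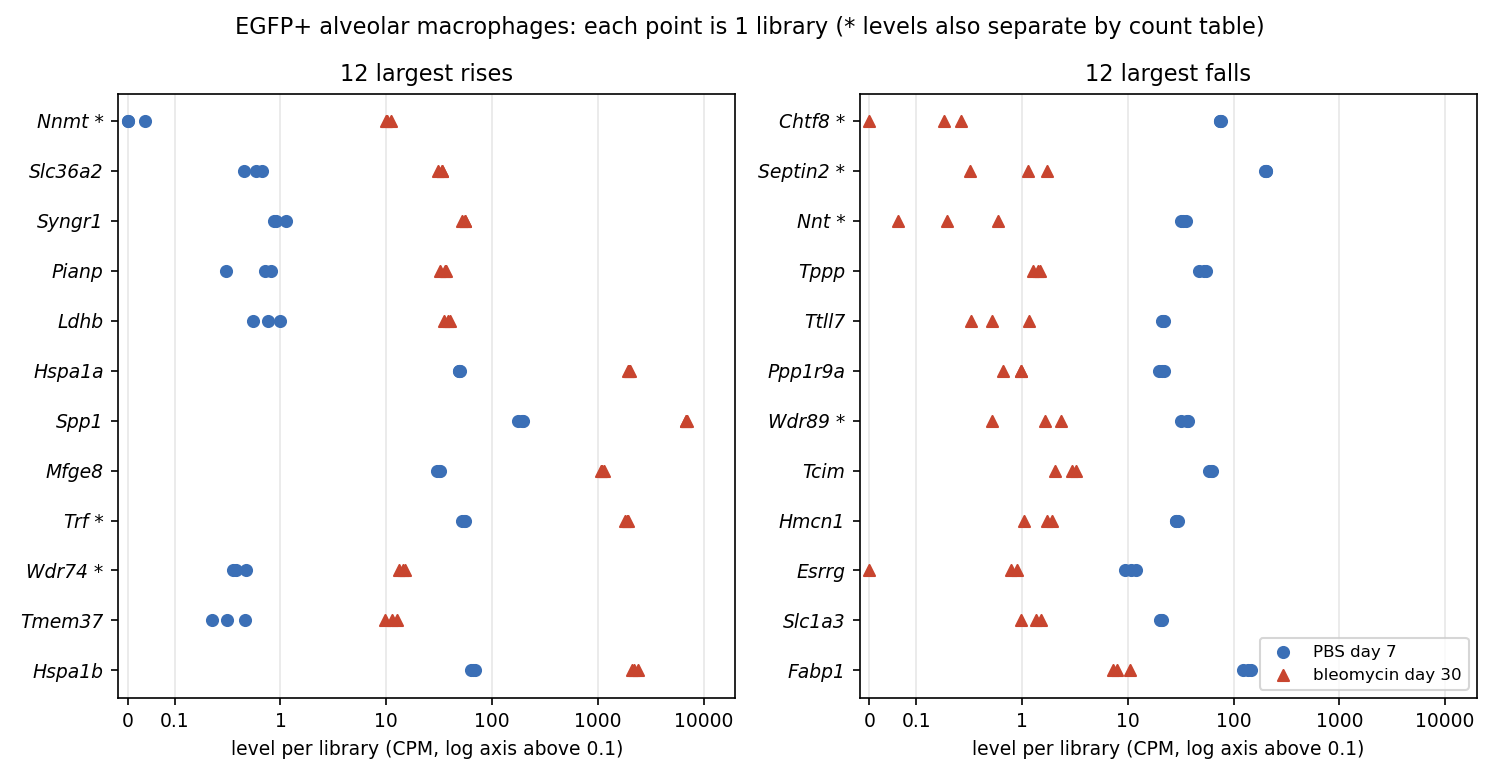
Levels in each library (CPM, log axis above 0.1) of the 12 genes with the largest rise and the 12 with the largest fall, for PBS (circles) and day 30 after bleomycin (triangles), 3 libraries each. The groups do not overlap in any of these genes, a condition of their choice, and an asterisk marks the genes whose libraries separate by count table in the whole series.

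The largest rises joined secreted, transport and chaperone genes. These genes were chosen by their change, so that the size of their differences is a description. Mfge8 (ENSMUSG00000030605, GRCm38 chr7:79133768-79149060, minus strand), a secreted bridge between dying cells and phagocytes, was at 30.0, 31.5 and 32.2 CPM after PBS and at 1064, 1138 and 1086 CPM at day 30. That was a 35.1-fold rise (log2 change 5.13 ± 0.06), and day 14 lay between, at 93.9 to 111 CPM. Slc36a2, a small amino acid transporter gene, rose from 0.568 ± 0.106 to 32.7 ± 1.61 CPM, and Ldhb, a lactate dehydrogenase subunit gene, from 0.765 ± 0.216 to 37.7 ± 2.35 CPM. Syngr1, a synaptogyrin gene of vesicle membranes, rose from 0.969 ± 0.145 to 54.6 ± 2.22 CPM, and Pianp, a PILR-alpha ligand gene, from 0.615 ± 0.273 to 34.9 ± 2.34 CPM. Tmem37, a membrane protein gene, rose from 0.333 ± 0.117 to 11.3 ± 1.44 CPM. Nnmt, nicotinamide N-methyltransferase, had 1 count over the 3 PBS libraries and 489 at day 30. The ratio of its mean levels in CPM, TMM factors included, was 828, with a 95% counting interval of 148 to 32760 on that scale. The fold fitted by edgeR was 513.

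Some of these genes also split by count table, and so by day, in other cells. Trf, which encodes the iron carrier transferrin, rose from 54.0 ± 1.99 to 1884 ± 72.1 CPM, but over all 24 libraries it was at 7.31 to 60.3 CPM of the total count in the first table and at 868 to 2608 in the second. Wdr74, a ribosome assembly gene, was at 0.31 to 1.28 CPM in the first table and at 11.9 to 23.1 in the second. Nnmt also separated by table, at 0 to 3.41 against 4.49 to 12.3 CPM, so that 3 of the 12 largest rises did. Trf, Wdr74 and Syngr1 each overlap a gene whose coordinates differ between the tables, here called a changed model.

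Among the largest falls, 4 of 12 separated by table. Chtf8, a sister chromatid cohesion gene, was at 74.0 to 75.9 CPM in the PBS libraries and at 0 to 0.265 CPM at day 30. Over the series it was at 79.7 to 121 CPM of the total count in every library of the first table and at most 0.263 in the second. Septin2, a septin cytoskeleton gene (130 to 218 CPM in the first table, 0.184 to 1.7 in the second), Nnt, the mitochondrial NADH to NADPH transhydrogenase gene (8.61 to 38.0 against 0.0607 to 0.592), and Wdr89 (27.7 to 48.0 against 0.128 to 2.31) did likewise. All 4 overlap a changed model, as does Esrrg.

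The other large falls did not separate by table and included genes of AMs and of the cytoskeleton. Fabp1, a fatty acid-binding protein gene of resident AMs, was at 138, 123 and 145 CPM after PBS and at 10.4, 7.86 and 7.29 CPM at day 30, a 15.9-fold fall (log2 change -3.99 ± 0.10). Tppp, a tubulin polymerization gene, fell from 51.2 ± 4.17 to 1.38 ± 0.107 CPM, and Tcim, a small transcriptional regulator gene, from 61.0 ± 1.80 to 2.75 ± 0.618 CPM. Ttll7, a tubulin-modifying ligase gene, fell from 21.5 ± 0.343 to 0.668 ± 0.434 CPM, and Ppp1r9a, an actin-binding phosphatase scaffold gene, from 20.9 ± 1.13 to 0.868 ± 0.178 CPM. Hmcn1, an extracellular matrix gene, fell from 28.9 ± 0.700 to 1.55 ± 0.465 CPM and Slc1a3, a glutamate transporter gene, from 20.5 ± 0.351 to 1.28 ± 0.284 CPM. Esrrg, an orphan nuclear receptor gene, fell from 10.6 ± 1.23 to 0.565 ± 0.492 CPM. With the rule applied only to genes that overlap no changed model, which was decided with the values already known, the elastin gene Eln (0.514 ± 0.211 to 17.8 ± 1.07 CPM), Mmp12 and the prostaglandin synthase gene Ptgs1 (4.22 ± 0.772 to 128 ± 4.92 CPM, separating by table) entered the rises. Eln rose together with the fibroblast markers given below, and the part of fibroblasts in its level was not tested. Acaa1b, a peroxisomal thiolase gene (262 ± 11.3 to 18.6 ± 2.07 CPM), Itgad, which encodes CD11d (162 ± 6.31 to 13.3 ± 1.30 CPM), Dnah11 (74.1 ± 2.79 to 5.96 ± 0.552 CPM), Mroh2a (45.6 ± 2.67 to 2.91 ± 0.0737 CPM, separating by table) and Krt79 entered the falls.

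**Figure D2:**
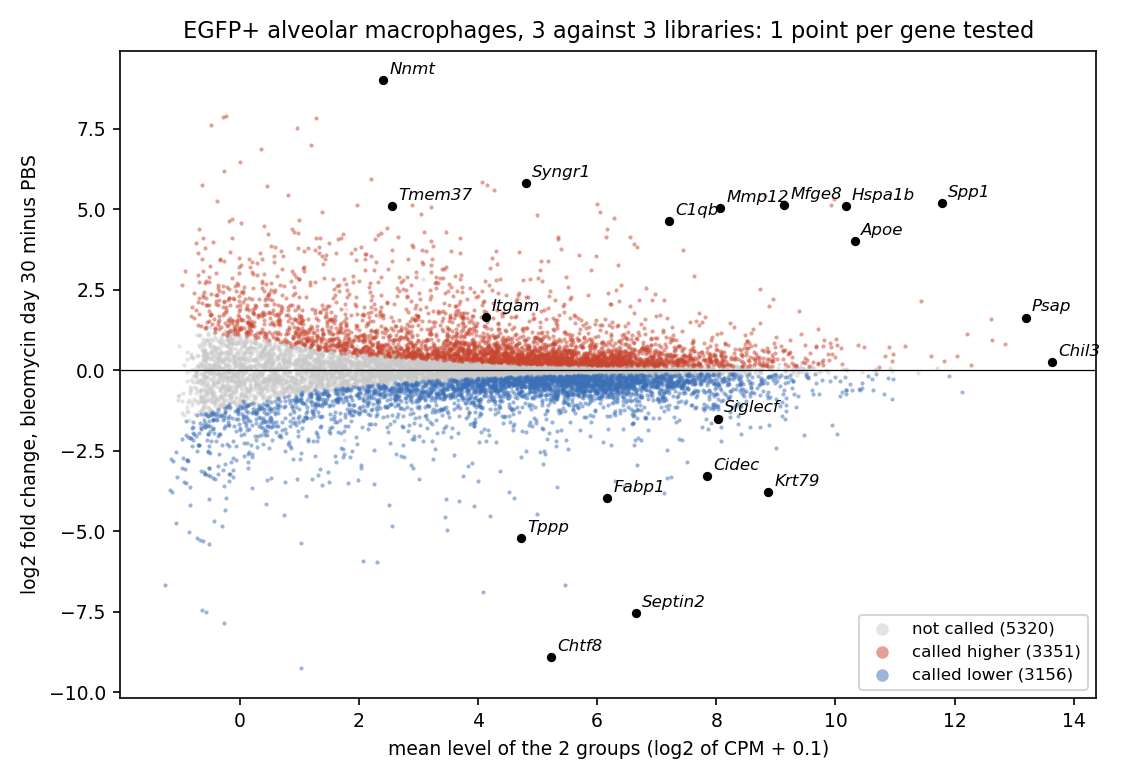
Each point is 1 of the 11827 genes tested, with the mean level of both groups (log2 of CPM + 0.1) on the x axis and the log2 fold change from PBS to day 30 on the y axis; red and blue points were called higher (3351) and lower (3156). Black points are named genes, and Spp1 is among the most abundant of the strongly raised ones; the height of Nnmt rests on 1 PBS count.

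Genes of resident AM identity fell more often than they rose: 14 of 26 tested members were lower, 9 higher and 3 were not called (11 and 5 with all 24 libraries in one fit), with a median log2 change of -0.26 against 0.01 over all genes. Krt79 (ENSMUSG00000061397, GRCm38 chr15:101929332-101940324, minus strand), a keratin gene of resident AMs, was at 881, 872 and 864 CPM after PBS and at 66.5, 56.4 and 66.2 CPM at day 30. The libraries were tight in both groups and Krt79 fell 13.8-fold (log2 change -3.79 ± 0.06, adjusted p = 7.47e-19 by edgeR). Cidec, a lipid droplet gene, fell from 417 ± 13.6 to 42.5 ± 2.18 CPM and the keratin gene Krt19 from 860 ± 30.9 to 162 ± 8.97 CPM. Flt1, a VEGF receptor gene, fell from 365 to 103 CPM and Ear1, a ribonuclease gene, from 500 to 157 CPM, although genes of the Ear family are near-identical copies among which reads may be split and Ear1 overlaps a changed model. The scavenger receptor genes Marco (242 to 149 CPM) and Mrc1 (1662 to 1126 CPM) also fell, but neither passed the test with all 9 AM libraries in one fit. Against this direction, the carbonic anhydrase gene Car4 rose from 291 to 402 CPM, Fabp4 from 44.6 to 152 CPM and Chil3 from 11565 to 13768 CPM, the last not past the test in the fit of 9 libraries. Pparg, the nuclear receptor that sets AM identity, was at 175 and 162 CPM and did not pass the test (adjusted p = 0.0875 by edgeR; called lower with scaling to the total count alone), nor did Itgax, which encodes CD11c (1612 and 1659 CPM).

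Genes of blood monocytes and of resident interstitial macrophages rose in most cases. Of 15 tested classical monocyte genes 12 rose and none fell, with 3 not called (median log2 change 1.30). With all 9 AM libraries in one fit 8 rose, and 10 did with all 24 or with scaling to the total count alone. Without day 30 replicate 1, 11 rose and 1 fell. Ccr2, the chemokine receptor of recruited monocytes, was at 16.4, 13.1 and 19.9 CPM after PBS and at 65.5, 81.1 and 88.0 CPM at day 30, with no overlap and a log2 change of 2.26 ± 0.16. Ms4a6c rose from 29.7 to 78.3 CPM, Hp, haptoglobin, from 12.5 to 107 CPM, and Ly6c2, in the fit of 6 libraries but not in that of 9, from 14.6 to 21.4 CPM, whereas Vcan, Plac8 and Clec4e did not pass the test. Of 18 interstitial macrophage genes 12 rose and 3 fell (median 1.36): the fractalkine receptor gene Cx3cr1 rose from 5.48 to 26.5 CPM, Ms4a7 from 4.12 to 22.2 CPM and the scavenger receptor gene Stab1, which overlaps a changed model, from 6.32 to 27.7 CPM. Folr2 rose from 0.551 to 1.76 CPM, and Lyve1 (0.632 and 0.665 CPM) and Cd163 (2.65 and 2.48 CPM), defining genes of the perivascular interstitial type, did not pass the test. Of 11 nonclassical monocyte genes 4 were higher and 5 lower, where 28.3% of all genes rose and 26.7% fell. Cd300a rose from 40.0 to 112 CPM, and Cd300e fell from 18.2 to 5.22 CPM.

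Of 20 lipid-associated macrophage genes tested, 14 rose, 2 fell and 4 were not called (median log2 change 0.76), or 13 and 5 with scaling to the total count alone. The 14 include Spp1, on whose reporter both groups were sorted. Another 4 listed genes, Cd63, Cstb, Ctsb and Ctsl, were not among the genes kept. Trem2 (ENSMUSG00000023992, GRCm38 chr17:48346401-48354147, plus strand), the lipid-sensing receptor, was at 47.6, 44.1 and 48.4 CPM after PBS and at 321, 367 and 363 CPM at day 30. No libraries overlapped, and Trem2 rose (log2 change 2.91 ± 0.06, adjusted p = 5.09e-17 by edgeR). Fabp5, a fatty acid-binding protein gene, rose 5.78-fold to 722 ± 16.7 CPM, and Gpnmb, a lysosomal membrane glycoprotein gene, rose 3.60-fold to 1054 ± 17.4 CPM. Apoe, which encodes the lipid carrier apolipoprotein E, was at 148, 119 and 188 CPM after PBS and at 2118, 2607 and 2536 CPM at day 30, a 16.0-fold rise. Cd36, a fatty acid receptor gene, fell from 477 to 243 CPM and Plin2, a lipid droplet coat gene, from 1597 to 1199 CPM. Lgals3 (galectin 3), Cd9, Anxa5 and Itgax, which also mark these cells, were not called, with levels of 1609 and 1626 CPM for Lgals3.

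All 19 tested genes of cholesterol synthesis rose, 13 of them at least 2-fold, with a median log2 change of 1.37. Sqle, squalene epoxidase (ENSMUSG00000022351, GRCm38 chr15:59315077-59331192, plus strand), was at 26.5, 31.2 and 29.5 CPM after PBS and at 118, 127 and 119 CPM at day 30. The groups stood apart, and Sqle rose 4.18-fold (log2 change 2.06 ± 0.07, adjusted p = 2.32e-14 by edgeR). Msmo1 rose from 57.7 to 154 CPM and Sc5d from 19.2 to 62.8 CPM, each a sterol-modifying enzyme. Mvk alone of these separated by table, and Fdps, at 0.239 and 1.53 CPM, has near-identical pseudogene copies that make its level uncertain. The sterol response element letters TCACNCCAC, chosen after the values were seen, were found in none of 12 promoter windows of this list and in 0.959% of all windows.

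Genes of cholesterol efflux and of the nuclear receptor LXR did not follow: 2 of 11 rose, 4 fell and 5 were not called (median log2 change -0.01). The efflux pump gene Abca1 was at 281, 291 and 265 CPM after PBS and at 147, 123 and 112 CPM at day 30, a 2.20-fold fall without overlap. Nceh1, which hydrolyses stored cholesterol esters, fell from 843 to 487 CPM and Soat1, which forms them, rose from 199 to 315 CPM. Of 21 genes of fatty acid handling, 8 rose and 12 fell (median -0.23), or 5 and 12 with scaling to the total count alone. The triglyceride synthase gene Dgat2 fell from 148 to 47.0 CPM and Pdk4, a kinase that spares glucose when fat is burnt, from 126 to 25 CPM. The beta-oxidation genes Acadm (90.6 to 60.6 CPM) and Hadha (302 to 243 CPM) fell by less, while the uncoupling protein gene Ucp2 rose from 1655 to 2346 CPM and the lipase gene Lpl from 3271 to 4011 CPM.

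Lysosome genes rose in 28 of 30 cases, with 1 fall (Scarb2) and 1 not called (Mcoln1), and a median log2 change of 0.70. Ctsd, cathepsin D (ENSMUSG00000007891, GRCm38 chr7:142375911-142388038, minus strand), was at 3081, 3199 and 3086 CPM after PBS and at 8852, 9841 and 9582 CPM at day 30, a 3.02-fold rise without overlap. Psap, prosaposin, rose from 4568 ± 73.3 to 14154 ± 389 CPM and Acp5, tartrate-resistant acid phosphatase, from 177 to 812 CPM. Smaller rises were seen in Lipa, the acid lipase gene (698 to 1374 CPM), Grn, progranulin (666 to 1108 CPM), and Lamp1 (1079 to 1771 CPM). Of the 30 genes, 11 separated by table, Psap, Acp5, Lamp1 and Atp6v0c (24.5 to 323 CPM, overlapping a changed model) among them, and 17 of the other genes rose. In the promoter windows of the list, 6 of 25 (24%) held the E-box letters CACGTG, the core of the site known for the lysosomal regulators of the MiT/TFE family, against 8.58% of all windows. Mcoln1, which was not called, was among the genes with these letters. The E-box share was not particular to this list, since 3 of 12 windows of the cholesterol synthesis list (25%) held the letters too. AP-1 letters were in 4 of 25 lysosome windows (16%) and in 4.17% of all windows. Part of the window of Lamp1 is shown because it held 4 E-box matches, in capitals (RefSeq, GRCm38.p6, chr8:13159061-13159160, plus strand, positions -100 to -1).
Lamp1: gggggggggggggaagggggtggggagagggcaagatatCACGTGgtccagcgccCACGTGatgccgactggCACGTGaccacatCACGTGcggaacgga
The factor gene Tfeb rose from 43.3 to 74.6 CPM (log2 change 0.78 ± 0.07) and Mitf from 47.2 to 57.7 CPM, the latter not past the test with scaling to the total count alone. The part of these factors in the rise of the list was not tested.

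**Figure D3:**
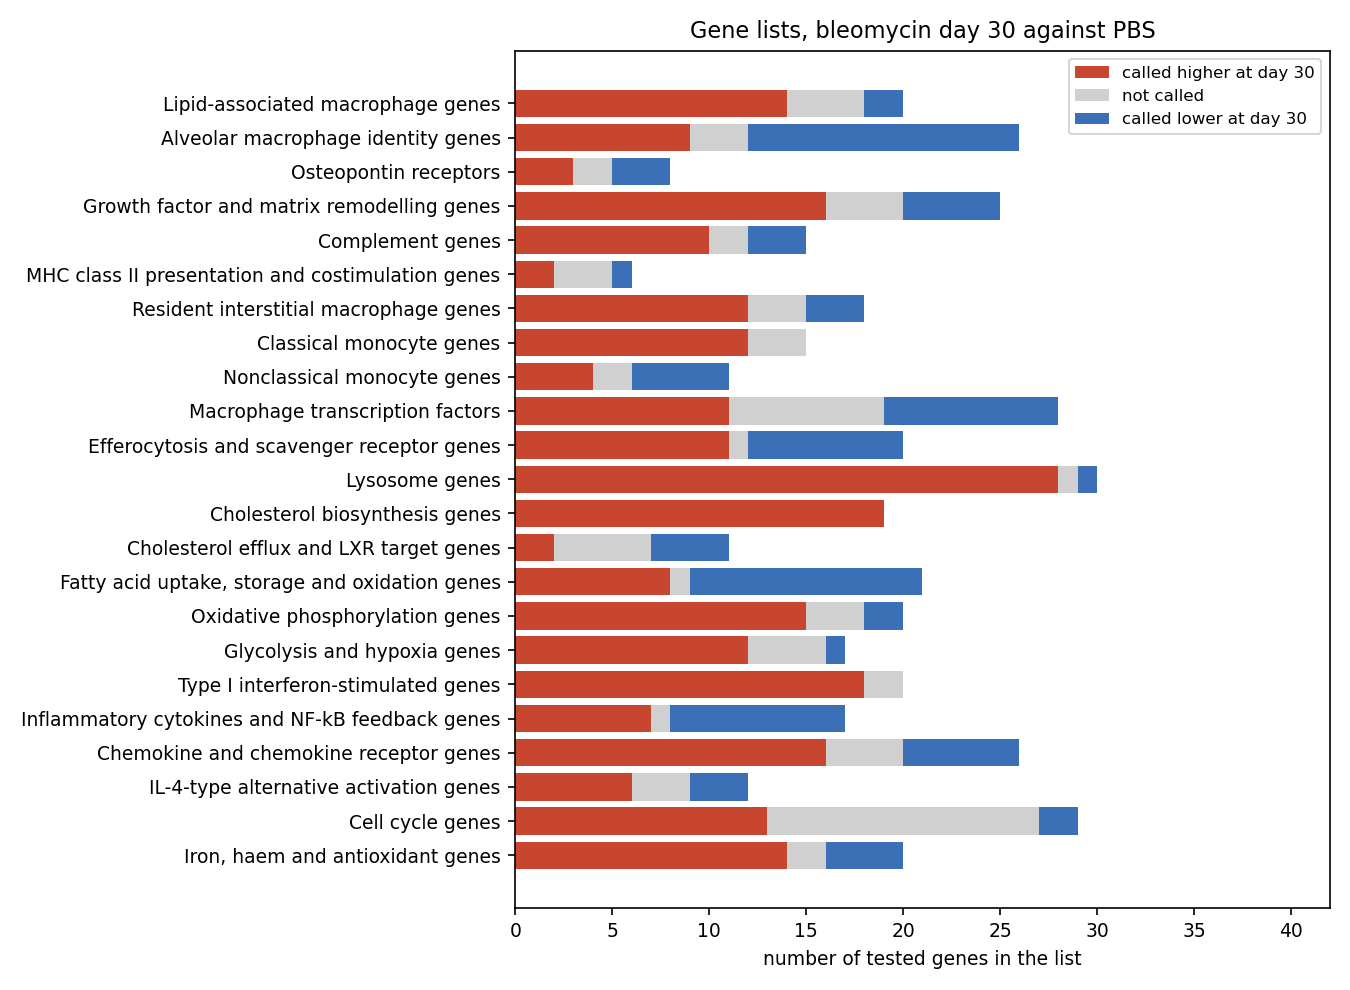
Number of tested genes in each of 23 lists that were called higher (red), not called (grey) or called lower (blue) at day 30. Cholesterol synthesis (19 of 19 higher) and lysosome genes (28 of 30) lie almost wholly on one side, and AM identity, fatty acid and inflammatory genes are split.

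Genes of growth factors and matrix remodelling rose in 16 of 25 cases and fell in 5 (median log2 change 1.41). Mmp12 (ENSMUSG00000049723, GRCm38 chr9:7344381-7369499, plus strand), macrophage elastase, was at 15.4, 14.7 and 18.1 CPM after PBS and at 526, 515 and 522 CPM at day 30. The 3 libraries of each group nearly coincided, and Mmp12 rose 32.5-fold (log2 change 5.02 ± 0.07, adjusted p = 4.55e-20 by edgeR). Fn1, fibronectin, rose 4.41-fold from 1024 ± 54.4 to 4518 ± 177 CPM, Igf1, a growth factor for fibroblasts, 5.57-fold to 135 ± 8.78 CPM, and Timp2, a metalloprotease inhibitor gene, from 95.2 to 325 CPM. Pdgfa, a fibroblast mitogen gene, rose from 0.328 ± 0.0706 to 6.16 ± 0.32 CPM. The urokinase receptor gene Plaur fell from 733 to 366 CPM without overlap. Tgfb1 fell from 444 to 335 CPM and Tgfb2 from 16.3 to 2.96 CPM, and the growth factor genes Pdgfc, Vegfa and Areg did not pass the test. Sparc (1.69 to 21.6 CPM) and Mmp2 (1.20 to 16.1 CPM), which fibroblasts also express, rose together with the fibroblast markers, whose summed level was 5.13 to 7.96 CPM after PBS and 69.0 to 72.9 CPM at day 30; the part of those cells was not tested.

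Complement genes rose in 10 of 15 cases and fell in 3 (median log2 change 1.98). Of the 15 genes 3 separated by table, and 7 of the other genes rose. C1qb, a chain of the first component, was at 12.2, 7.17 and 15.5 CPM after PBS and at 229, 309 and 311 CPM at day 30. The groups were well apart despite the wide spread within each, and C1qa and C1qc rose too, to 185 and 134 CPM. C4b rose from 4.54 to 76.5 CPM, separating by table. C3ar1, the C3a receptor gene, rose from 2.90 to 36.2 CPM and C5ar1, the C5a receptor gene, fell from 312 to 139 CPM. Genes for the uptake of dying cells and modified lipoproteins were higher in 11 of 20 cases and lower in 8, or 4 lower with all 9 AM libraries in one fit. Beside Mfge8, the scavenger receptor gene Msr1 rose from 10.2 ± 1.19 to 177 ± 14.0 CPM and Clec4n, which encodes dectin-2, from 413 to 796 CPM, whereas Mertk, a receptor kinase for dying cells, fell from 443 to 285 CPM. Axl, another such kinase gene, was at 1712 and 1568 CPM with overlapping libraries, and its call was lost when single libraries were left out. The bridging ligand gene Gas6 rose from 1.27 to 8.55 CPM and Pros1, the gene of protein S, another ligand of these kinases, fell from 299 to 223 CPM.

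Of 26 chemokine and chemokine receptor genes, 16 rose and 6 fell (median log2 change 1.08). Cxcl16, a scavenger receptor and T cell attractant, was at 19.2, 17.1 and 21.6 CPM after PBS and at 92.7, 97.0 and 99.2 CPM at day 30. Every day 30 library lay above the PBS range (log2 change 2.32 ± 0.08). Ccl9 rose from 115 to 303 CPM and Ccl6 from 3588 to 4828 CPM. The neutrophil attractant genes Cxcl2 (735 to 340 CPM), Cxcl3 (28.9 to 7.14 CPM) and Cxcl1 (84.5 to 66.6 CPM) fell. Inflammatory cytokine and NF-kB feedback genes were split, 7 of 17 higher and 9 lower. Nlrp3, the inflammasome sensor gene, fell from 443 ± 15.5 to 160 ± 3.71 CPM, Il6 from 36.6 to 16.5 CPM and Tnf, separating by table, from 147 to 92.2 CPM. Il1b rose from 344 ± 24 to 532 ± 59.1 CPM, and Socs3, a feedback inhibitor gene of cytokine signalling, from 37.5 to 98.1 CPM. Among genes induced by IL-4, 6 of 12 rose and 3 fell, or 4 and 1 of 11 with all 9 AM libraries in one fit and 3 and 1 of 12 with all 24. Mgl2 rose from 3.58 to 13.7 CPM and Ccl17 from 2.80 to 15.4 CPM, and Tgm2 fell from 1918 to 1242 CPM.

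Type I interferon-stimulated genes rose in 18 of 20 cases and none fell, with a median log2 change of 1.59. Oasl2, an antiviral gene, was at 2.31, 1.66 and 2.5 CPM after PBS and at 18.2, 18.6 and 19.2 CPM at day 30. Oas1a, an antiviral RNA-sensing enzyme gene (ENSMUSG00000052776, GRCm38 chr5:120896256-120907521, minus strand), was at 18.5, 17.7 and 15.4 CPM after PBS and at 49.6, 49.9 and 46.7 CPM at day 30. In both, every day 30 library lay above every PBS library. Bst2, tetherin, rose from 32.4 to 71.6 CPM, and the RNA sensor genes Ddx58 and Ifih1 did not pass the test. No member separated by table, and the summed level of the list was 213 to 235 CPM after PBS and 423 to 453 CPM at day 30. The interferon response element letters were in 6 of 13 promoter windows of the list (46.2%) and in 2.8% of all windows. Parts of the windows of Oas1a (RefSeq, GRCm38.p6, chr5:120907526-120907585, minus strand, positions -60 to -1) and Bst2 (chr8:71537562-71537622, minus strand, positions -150 to -90) are shown because each held 2 overlapping matches, in capitals.
Oas1a: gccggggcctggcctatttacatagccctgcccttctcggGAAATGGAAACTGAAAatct
Bst2: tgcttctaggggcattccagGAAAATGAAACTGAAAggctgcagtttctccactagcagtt
In the same order, Oas1a rose 2.82-fold and Bst2 2.21-fold.

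The paired heat shock genes Hspa1a and Hspa1b, which encode inducible HSP70 chaperones, were among the 12 largest rises. Hspa1a (ENSMUSG00000091971, GRCm38 chr17:34969190-34972156, minus strand) was at 48.4, 50.3 and 49.2 CPM after PBS and at 2020, 1937 and 1962 CPM at day 30. Hspa1b (ENSMUSG00000090877, GRCm38 chr17:34956436-34959238, minus strand) was at 68.6, 66.5 and 62.8 CPM after PBS and at 2393, 2209 and 2124 CPM at day 30. The genes are near-identical copies, so the split of reads between them is uncertain, but both rose, 39.9-fold and 33.9-fold. The bases before their start sites are shown because they differ at 2 of 161 positions (98.8% identical), with the heat shock element core letters GAANNTTC in capitals, chosen after the values were seen and present in 5.25% of all windows. They are from RefSeq (GRCm38.p6, positions -220 to -60, minus strand), chr17:34972216-34972376 for Hspa1a and chr17:34959298-34959458 for Hspa1b.
Hspa1a: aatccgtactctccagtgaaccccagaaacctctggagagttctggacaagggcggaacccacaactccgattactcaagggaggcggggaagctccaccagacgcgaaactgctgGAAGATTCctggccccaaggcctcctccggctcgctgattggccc
Hspa1b: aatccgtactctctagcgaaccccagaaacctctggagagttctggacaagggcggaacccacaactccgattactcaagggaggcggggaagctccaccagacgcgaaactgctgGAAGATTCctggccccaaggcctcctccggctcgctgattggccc
Some other chaperone genes rose by less and others fell. Dnajb1, an HSP70 co-chaperone gene, rose from 70.3 ± 3.11 to 217 ± 8.26 CPM, Hsph1 from 104 ± 4.17 to 300.02 ± 24.7 CPM, Hsp90aa1 from 434 ± 9.85 to 945 ± 91.7 CPM and Hspb1 from 1.48 ± 0.245 to 15.1 ± 1.97 CPM, while the constitutive gene Hspa8 fell from 4086 ± 125 to 3586 ± 20.9 CPM and Hspa5, the chaperone gene of the endoplasmic reticulum, from 1705 ± 80.9 to 1416 ± 92.2 CPM. Over the 8 groups of the series, the mean of Hspa1a was 9.51 to 469 CPM of the total count outside the day 30 AMs and 1958 there. These genes are also known to respond to tissue dissociation. Of 12 tested dissociation stress genes 8 rose and 4 fell (7 and 2 with all 24 libraries in one fit), and among the immediate early genes Jun rose from 229 to 491 CPM, Fos was at 433 and 485 CPM (adjusted p = 0.0217 by edgeR, with overlapping libraries and a call lost with total count scaling) and Fosb fell from 1663 to 423 CPM. The part of sample handling was not tested.

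Energy metabolism genes rose by modest amounts. Of 20 oxidative phosphorylation genes 15 rose and 2 fell (median log2 change 0.23), or 9 rose with scaling to the total count alone. Of the 20 genes 4 separated by table, and 11 of the other genes rose. Sdhb, a succinate dehydrogenase subunit gene, rose most, from 68.3 ± 4.99 to 125 ± 11.4 CPM. Among genes of glycolysis and the hypoxia response, 12 of 17 were higher and 1 lower (median 0.46): the glucose transporter gene Slc2a1 rose from 47.1 to 103 CPM, the phosphofructokinase gene Pfkl from 39.2 to 92.8 CPM and the enolase gene Eno1 from 358 to 644 CPM. Of 29 cell cycle genes 13 rose, 2 fell and 14 were not called, or 11 rose and 6 fell with scaling to the total count alone and 12 and 0 with all 24 libraries in one fit. Genes of mitosis such as Ccnb1, cyclin B (8.05 to 22.2 CPM), Plk1 (5.15 to 15.9 CPM) and Cdc20 (7.67 to 17.2 CPM) rose, while the replication genes Mcm2 to Mcm7 were not called and the proliferation marker gene Mki67 was at 103 and 87.7 CPM, called lower in the fit of 6 libraries but not in that of 9. Iron and antioxidant genes rose in 14 of 20 cases and fell in 4, or 2 with all 24 libraries in one fit: the ferritin light chain gene Ftl1 from 5352 ± 120 to 9335 ± 304 CPM, separating by table, the endosomal iron reductase gene Steap3 from 4.95 to 31.2 CPM and the iron exporter gene Slc40a1 from 3.32 to 20 CPM. Haem oxygenase, Hmox1, fell from 968 to 780 CPM.

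Of 28 macrophage transcription factor genes tested, 11 were higher, 9 lower and 8 not called, where 28.3% of all genes were higher and 26.7% lower. With scaling to the total count alone 9 were higher and 13 lower, and with all 24 libraries in one fit 10 and 5. Bhlhe41, a repressor known to maintain AM identity and self-renewal, was at 86.2, 87.0 and 77.6 CPM after PBS and at 204, 181 and 191 CPM at day 30, a 2.29-fold rise without overlap, and its partner gene Bhlhe40 fell from 700.4 to 550 CPM. Cebpa, a myeloid lineage factor gene, fell from 700 to 416 CPM, the AP-1 factor gene Fosl2 from 742 to 407 CPM and Runx1, which overlaps a changed model, from 341 to 154 CPM. Few genes of antigen presentation could be read, since 10 of the 16 listed, the classical class II genes among them, were not kept. Of the 6 that were, Ctss, a protease that trims the invariant chain, rose from 2979 to 6472 CPM, separating by table, and the co-stimulatory gene Cd86 was at 34.3 and 34.9 CPM and not called. With all genes shared by both tables, changed models included, 16 genes of that list were tested, of which 2 rose and 10 fell.

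Transcripts of other cells were present in the sorted samples and differed between the groups. All 6 tested fibroblast markers rose, the collagen gene Col1a1 from 0.744, 1.47 and 0.918 CPM to 19.3, 21.7 and 21.4 CPM. All 8 T cell markers rose as well, to a sum of 91.4 to 108 CPM at day 30 from 32.1 to 44.5 CPM after PBS. The day 30 libraries thus lay above the PBS libraries in both lists. Neutrophil markers rose in 6 of 8 cases, S100a9 from 33.3 ± 11.8 to 193 ± 18.6 CPM, and their sum was 120 to 186 CPM after PBS and 505 to 590 CPM at day 30; Ly6g was too low to test. Mmp9 and Pglyrp1, members of other lists here and also expressed by neutrophils, rose with them, from 7.51 to 36.9 and from 3.62 to 11.1 CPM. B cell markers fell in 6 of 9 cases (3 with all 24 libraries in one fit), with a sum of 1652 to 1899 CPM after PBS and 1163 to 1576 CPM at day 30, mostly Ighm and the light chain gene Igkc, which was not called; the call for Ighm was lost with all 24 libraries in one fit. Erythroid markers rose at low levels (sum 0.862 to 2.41 and 19.5 to 29.1 CPM), NK cell markers in 3 of 3 cases and endothelial markers in 2 of 6, where 2 others were lower with scaling to the total count alone. Lung epithelial markers were split, 3 of 8 higher and 4 lower, and eosinophil markers too, 1 of 5 higher and 2 lower, the sum in the latter being mostly Siglecf. Dendritic cell markers were higher in 3 of 8 cases (1 without PBS replicate 1 or 2) and lower in 2, where 28.3% of all genes rose and 26.7% fell. Of 2 platelet markers 1 was higher and 1 lower, and neither of 2 mast cell and basophil markers was called. The part of these cells in the changes above was not tested.

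**Figure D4:**
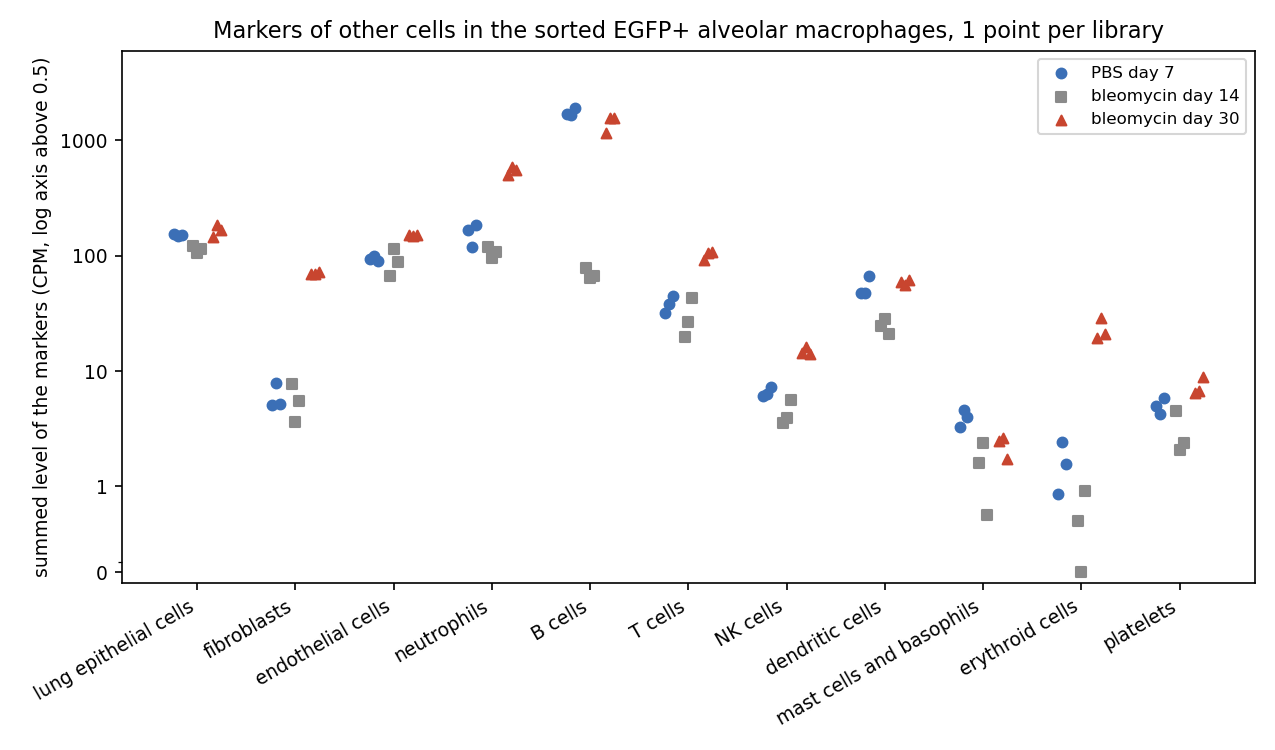
Summed level (CPM, log axis above 0.5) of the markers of other cell types in each of the 9 AM libraries. Fibroblast, neutrophil, T cell and erythroid sums are highest at day 30, and the B cell sum is under 100 CPM at day 14 only.

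Day 30 was then set beside day 14, which lies in the same count table and had the same dose of bleomycin. Both share the PBS libraries, so only levels are given side by side with PBS. Of 11850 genes tested in the 9 AM libraries, 37.9% were called between the days, 19.5% higher (2312 genes) and 18.4% lower (2175 genes) at day 30. The first principal component of the 2000 most variable genes held 55.5% of the variance and placed day 30 between PBS and day 14, and the second, with 30.9%, set day 30 apart from both.

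The lipid-associated and AM identity genes were nearer to PBS at day 30 in some members and further from it in others. Spp1 was at 6857, 4480 and 4047 CPM at day 14, a wide spread that reached the day 30 libraries, and the difference between the days did not pass the test (log2 0.42 ± 0.16, adjusted p = 0.0568 by edgeR). Gpnmb was at 267 to 498 CPM at day 14 and 1043 to 1074 at day 30, and Trem2 (193 to 221 against 321 to 367 CPM), Fabp5 and Ctsd were likewise higher at day 30. In total 13 of the 20 lipid-associated genes were higher at day 30 than at day 14 and none lower. Cd36 was at 51.7 CPM at day 14, below both PBS and day 30. Krt79 was at 28.3 to 37.6 CPM at day 14 and 56.4 to 66.5 at day 30, a rise between the days that left it far below the PBS level of at least 864 CPM. Krt19 (56.2 and 162 CPM) and Ear1 (58.4 and 157 CPM) did the same, and for Siglecf, at 131 and 135 CPM, the test between the days was not passed.

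Most inflammatory genes were lower at day 30 than at day 14, and complement and monocyte genes were divided. Il1b was at 2186, 2610 and 3113 CPM at day 14 and at 465, 574 and 559 CPM at day 30 (log2 -2.31, adjusted p = 2.7e-09 by edgeR), and 12 of the 17 inflammatory genes were lower at day 30 and 3 higher. Of 15 classical monocyte genes 4 were lower and 5 higher, and of 15 complement genes 7 were lower and 3 higher. Among the lower ones, Ccr2 was at 242 to 444 CPM at day 14 and 65.5 to 88.0 at day 30, and Ms4a6c at 250.1 and 78.3 CPM. C1qb was at 449 to 697 and 229 to 311 CPM, C4b at 253 and 76.5 CPM and Msr1 at 313 to 375 and 161 to 187 CPM. Fn1 was at 7816 and 4518 CPM and the growth factor gene Areg at 170 and 31.9 CPM, the latter close to its PBS level of 33.4 CPM. Oxidative phosphorylation genes were lower at day 30 in 11 of 20 cases and higher in none. Cholesterol synthesis genes were higher in 3 of 19 cases and lower in 3, and interferon-stimulated genes higher in 2 of 20 and lower in 3. Over all genes tested between the days, 19.5% were higher and 18.4% lower.

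Hspa1a, Hspa1b, Dnajb1 and the markers of several other cells stood highest at day 30. Hspa1a was at 8.89 to 11.7 CPM at day 14 and Dnajb1 at 46.9 to 50 CPM, both below their PBS levels. Mfge8 rose from 104 CPM at day 14 to 1096 CPM at day 30 (log2 3.40 ± 0.08, adjusted p = 1.32e-14 by edgeR), and Bhlhe41 from 57.2 to 192 CPM. All 6 fibroblast, all 8 T cell and 7 of 8 neutrophil markers were higher at day 30 than at day 14, and 1 neutrophil marker was lower. All 9 B cell markers were higher too, the sum being 63.9 to 78.6 CPM at day 14. Klf2, Ly6c2, Plac8 and Pglyrp1, which lymphocytes or neutrophils also express, were higher at day 30 than at day 14 beside these markers, Pglyrp1 by 4.41 on the log2 scale. The part of these cells was not tested.

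**Figure D5:**
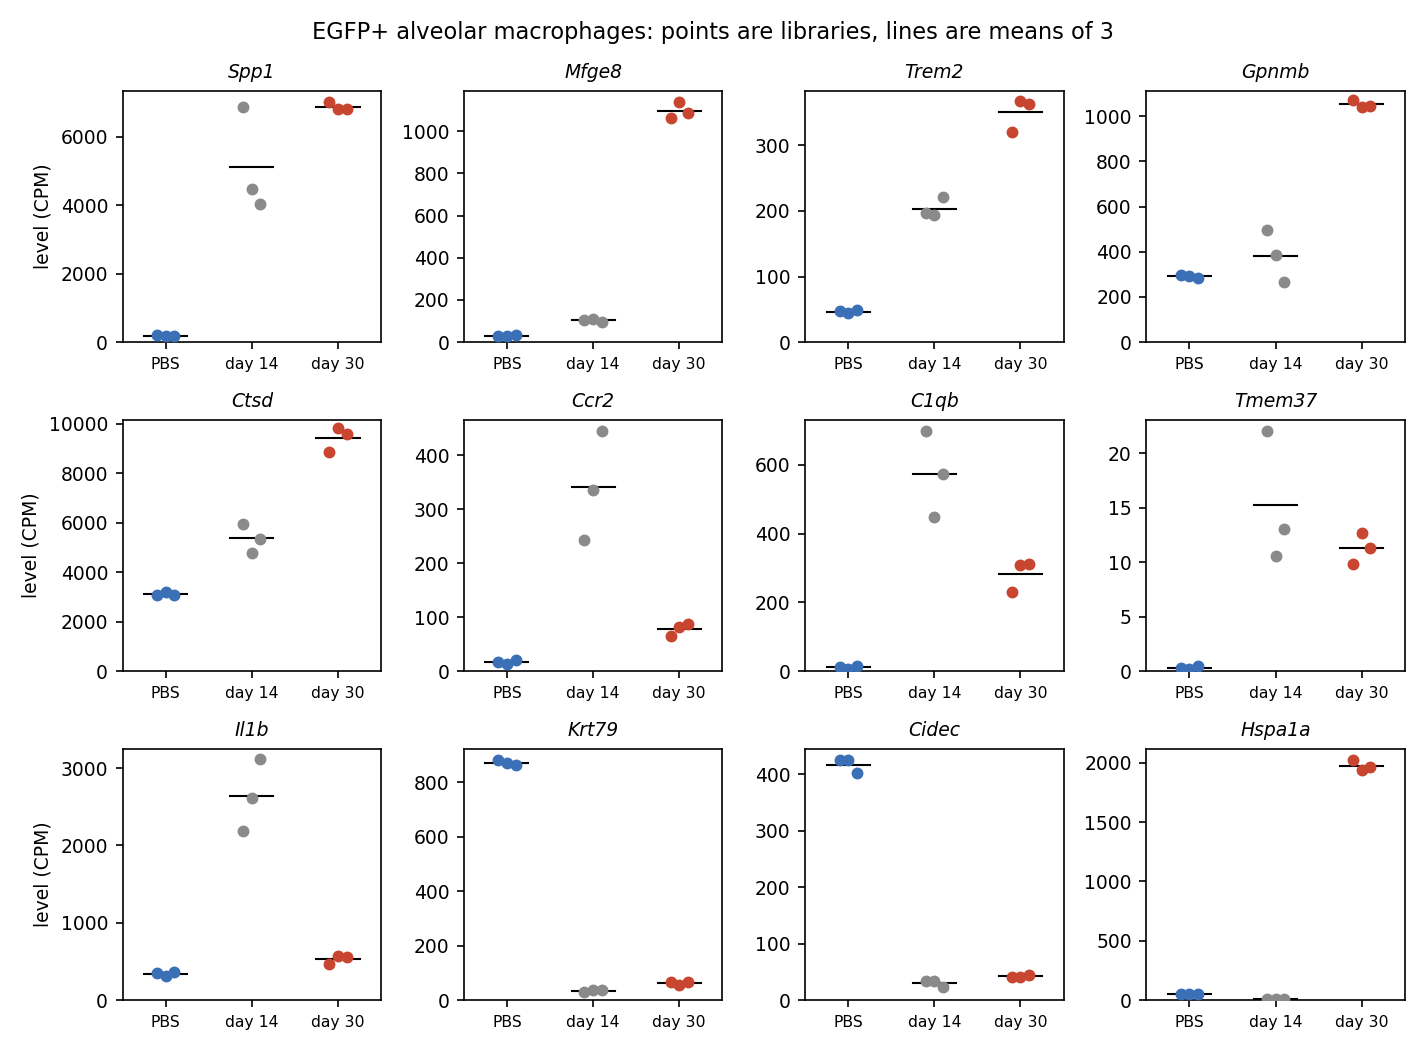
Levels (CPM, linear axes from 0) of 12 genes in each EGFP+ AM library after PBS, at day 14 and at day 30, with the mean of 3 as a line. Mfge8, Trem2, Gpnmb and Ctsd are highest at day 30, Ccr2, C1qb and Il1b at day 14, and Krt79 and Cidec are low at both days after bleomycin.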

How the data were processed

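The authors deposited whole-number read counts per gene in 2 tables, as the file headers and values show; the submitters' processing notes name the build GRCm38 and the tools featureCounts 1.6.3, HISAT2 2.1.0, SAMtools, Trimmomatic 0.38 and FastQC 0.11.5. The annotation release and strand setting are not given in the sources used here, so overlapping or antisense genes cannot be told apart. The tables hold 3 further columns that could be tied to no sample, which were left aside.

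Tables were joined by gene ID. The kept genes held 73.8% to 76.3% of the counts of the 6 libraries. Levels and the test used the total deposited count as library size. Genes were tested with edgeR 4.0.16 in R 4.3.3 (TMM, filterByExpr, robust quasi-likelihood F test, 2-sided, group as the only term) over the 6 libraries, and day 30 against day 14 over the 9 AM libraries. Calls are at 0.05 after Benjamini-Hochberg adjustment across every gene in the fit. The SE is the absolute log2 change over the square root of F. The test was run on simulated data for day 30 against PBS (11843 genes): it recovered 74.6% of genes changed 1.5-fold, 97.0% at 2-fold and all at 4-fold, with 10 false calls. The simulation changed only 200 genes, all of higher counts, up and down in equal number. In the data 55% of the genes tested were called, so these rates need not hold there. No 2 replicates held identical counts, and every pair differed by more than sampling noise (chi-square per degree of freedom 3.64 or more in these 6 libraries). Intervals cover counting error only, since the reads carry no molecular identifiers.

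Genes were named by a rule: the reporter and gate genes; then, in each direction, the 12 called genes of largest change whose libraries did not overlap and whose higher group reached 10 CPM (predicted genes, pseudogenes, antigen receptor segments and ribosomal protein genes left out), then the 4 members of each list with the smallest p; other members are named to account for their list. The comparison, the 23 pathway lists and the 15 marker lists were chosen with earlier results of these data known. Symbols are those of the second table. The alternatives were DESeq2 1.42.0, other scaling, no filter, other sets of genes or libraries, a replicate block and leaving out each library. Some results are not reported here.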

Additional observations from a re-analysis of the deposited data

Results flagged for a closer look

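Of the 26 reporter, gate and largest-change genes, 14 differed between day 30 and day 14 by the edgeR test of that difference itself, 11 higher and 3 lower at day 30. Over all 11850 genes 37.9% were called, 19.5% higher and 18.4% lower. The largest-change genes were chosen with the same day 30 libraries, so these counts are a description. The largest differences were those of the near-identical heat shock genes: Hspa1b was higher by 8.22 and Hspa1a by 7.60 on the log2 scale. Esrrg was higher by a fitted 6.36, but it had no count at day 14, so that this value depends on the fit and is no bound. Mfge8 was higher by 3.40, Pianp by 2.95, Hmcn1 by 2.95, Tcim by 2.55 and Slc1a3 by 1.98. Itgam was higher by 1.75, Syngr1 by 1.21 and Fabp1 by 0.73. The 3 lower genes were Ppp1r9a (-1.87), Ldhb (-0.995) and Trf (-0.47).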

How the results depend on the processing

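The counts of genes called between day 30 and PBS stayed within 1.5 times of 3351 higher and 3156 lower under every alternative run. They were 3064 and 3052 with DESeq2, 3326 and 3463 of 21464 genes without the filter, 4155 and 4083 with all shared genes, and 2933 to 3309 and 2775 to 3309 when any 1 library was left out. Total count scaling gave 38.8% higher among the called genes in place of 51.5%. Without the genes that separate by table, a choice made after seeing the data, 3179 rose and 2466 fell. With the replicate number as a block there were 3211 and 3068; deviations of same-numbered libraries correlated at 0.01, -0.03 and 0.02, so the numbers were not taken to pair the libraries, and none of the genes named by the rule changed its call under the block. Between day 30 and day 14, 1984 to 2311 genes were higher and 1717 to 2312 lower with 1 library left out, and 2205 and 2034 with the block. The naming rule took 157 genes, mostly for small p or large change in these libraries, so they do not stand for all calls. Of these 157 genes, 142 kept direction and call under every alternative that gave a value. The sole reversal among them was Cd40, not called in any, at -0.028 with total count scaling, and from -0.13 to 0.25 with 1 library left out (-0.13 without day 30 replicate 2, -0.010 without PBS replicate 1) in place of 0.087; the cause was not tested. Calls for Fscn1, Ifi30, Tie1 and Xcr1 were lost without any of 3 or 4 single libraries, and that for Itga2b without PBS replicate 3. At this depth, genes under about 1 CPM rest on few counts.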
